A study of Homo sapiens with 24 samples.

Results

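The 37 genes described here are members of the ATF4 and amino acid stress response, listed by symbol. Of them, 36 had at least 10 counts summed over all libraries, against 19687 of the 28278 genes in the table. PCK2, which encodes the mitochondrial form of phosphoenolpyruvate carboxykinase, had 0 counts. A filter on low counts left 35 members for testing, since ASNS, the asparagine synthetase gene, also failed it. By role the 37 divide into 9 regulators, 7 feedback and stress effectors, 10 amino acid and one-carbon enzymes, 7 transporters or receptors, and 4 secreted factors.

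The libraries come from TYUC-1, a cancer cell line from a neuroendocrine carcinoma of the esophagus, grown in suspension with serum. An i-DNp63 line and an i-TAp63 line expressed the named isoform of p63, a transcription factor of squamous epithelia, under doxycycline at 1 µg/ml. Libraries were made after 0, 1, 3 and 6 days of doxycycline within a 6 day course, with DMSO on the remaining days, and each of the 8 groups has 3 libraries. The replicates are described as biological, with no account of how cultures were separated, so p-values measure the spread among these libraries. The ΔNp63 groups are thus i-DNp63 cells with 1, 3 or 6 days of doxycycline, set against the same line with 0 days, and the TAp63 groups follow the same scheme in i-TAp63 cells. Every sample carries in addition a treatment label that names EPZ-6438, an EZH2 inhibitor, with a number of days equal to its days of doxycycline. Whether the inhibitor was in the medium is not settled by the labels, so induction of p63 and any exposure to EPZ-6438 cannot be told apart, nor can an effect of doxycycline itself.

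ATF4 is a leucine zipper transcription factor whose protein is made mainly when the translation initiation factor eIF2α is phosphorylated, for instance by GCN2 during amino acid shortage or by PERK during endoplasmic reticulum stress. With partners of the C/EBP family it binds composite sites in the genes for serine and one-carbon enzymes, amino acid transporters and tRNA synthetases, and in stress genes such as DDIT3 and TRIB3. Because ATF4 is controlled largely at translation, its messenger RNA level is only a partial readout of its protein.

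Total counts ran from 6375963 to 22019974 in 23 libraries, and 1 library stood apart. That library, replicate 3 of ΔNp63 day 1, was the shallowest at 1530847 counts, and its summed level of 14 erythroid markers was 4359.6 CPM (counts scaled to the normalised library size), against 50.9 to 97.5 CPM in the other libraries of replicate 1, 9.85 to 27.7 CPM in those of replicate 2 and 7.34 to 11.9 CPM in those of replicate 3. Of the 35 tested members, 12 lay above and 12 below the range of the other 23 libraries in it. Its TP63, the induced gene, was at 69.2 CPM, against 721.3 and 575.8 CPM in replicates 1 and 2 of its group and 4.94, 3.97 and 4.13 CPM at day 0. Induction was present at the labelled days: on the log2 scale TP63 was higher by 6.73, 7.64 and 7.74 at days 1, 3 and 6 of ΔNp63 induction, with 7.21 at day 1 in a fit without that library, and by 6.98, 7.57 and 7.80 at those days of TAp63 induction. Among the markers of the labelled tumour type, INSM1 was at most 0.779 CPM and CHGA at most 1.11 CPM in each library. Both are only part of that marker list. Most of the summed level of the list came from its other members, which are not reported here.

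Changes are given as log2 differences from edgeR's quasi-likelihood fit of all 24 libraries, with their SE, and a gene is called when its p, adjusted by Benjamini-Hochberg over all 15642 genes tested, is under 0.05. A second fit had the replicate number as a block and left out replicate 3 of ΔNp63 day 1; it is called the blocked fit here. It is given because libraries with the same replicate number deviated together in each comparison except ΔNp63 day 1 against day 0, and because results that rest on the library that stands apart are also given without it. Counts of members at an unadjusted p under 0.05 are given without the share of all genes at that p, so they have no background.

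A motif that ATF4 and C/EBP partners bind, TGATGNAA, was searched on both strands in RefSeq promoter windows (GRCh38.p14) that run from 250 bases before to 50 bases after each annotated start; a match is a description and not a site shown to be bound. Windows were found for 31 of the 37 members, and PSPH, SLC7A11, ALDH1L2, EIF4EBP1, SHMT2 and NUPR1 had no window in the table. At least 1 match was present for 10 of these 31 members, 32.3%, against 4.46% of 27305 genes. The 7 matched members that were called lower at day 3 of ΔNp63 induction in the blocked fit are shown, each as 30 bases on the gene's own strand with the motif, or its reverse complement, in capitals.
CEBPG (chr19:33374060-33374089, plus strand): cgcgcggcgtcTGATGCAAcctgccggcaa
JDP2 (chr14:75427995-75428024, plus strand): atagccggggcTGATGCAAcccgtcccgcc
MTHFD1L (chr6:150866346-150866375, plus strand): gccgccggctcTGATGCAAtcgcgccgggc
SLC7A1 (chr13:29595663-29595692, minus strand): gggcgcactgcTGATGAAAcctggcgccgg
FGF21 (chr19:48755459-48755488, plus strand): aaacaccaggaTTGCATCAgggaggaggag
HERPUD1 (chr16:56931955-56931984, plus strand): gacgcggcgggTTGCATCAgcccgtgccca
SLC3A2 (chr11:62881719-62881748, plus strand): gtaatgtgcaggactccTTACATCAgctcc
The other 3 matches were in ASNS, which was not tested, and in ATF3 and CHAC1, which were not called lower there. These letters were not found in the windows of MTHFD2, PSAT1, TRIB3 and SLC7A5, which were called lower in both fits as CEBPG was. In the blocked fit 28 of the 35 tested members were called lower at that day, with or without a match. Whether a match goes with the decrease was not tested.

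The members lay lower on day 3 of ΔNp63 induction. Of the 35 tested, 32 had a negative change, with a median of -0.41 against -0.0137 over all genes, and 31 were lower in each of the 3 replicate pairs. How many of all genes were lower in each pair was not counted, so that number has no background. In the fit of all libraries 5 were called, all lower: MTHFD2, PSAT1, TRIB3, SLC7A5 and CEBPG. In that fit 2.2% of all genes were called in either direction and 0.537% were called lower. In the blocked fit 28 of 35 were called lower and 0 higher, against 23.5% of all genes in either direction and 11.3% lower, and the 5 genes were among the 28. For 19 members the 3 libraries of day 3 lay wholly below the 3 of day 0, against 10.4% of all genes tested. DESeq2 called 8, all lower, against 3.29% of genes in either direction and 1.1% lower. The block alone gave 12 calls (2.69% of genes called lower) and leaving out the library that stands apart alone gave 11 (1.99%), whereas leaving out replicate 1 or replicate 2 of day 0 or replicate 3 of day 3 gave 2 each, and replicate 2 of day 3 gave 3. Over all genes, leaving out 1 library gave 144 to 1000 calls in this comparison. These are bulk libraries, in which fewer cells expressing a gene and less RNA per cell cannot be told apart.

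**Figure D1:**
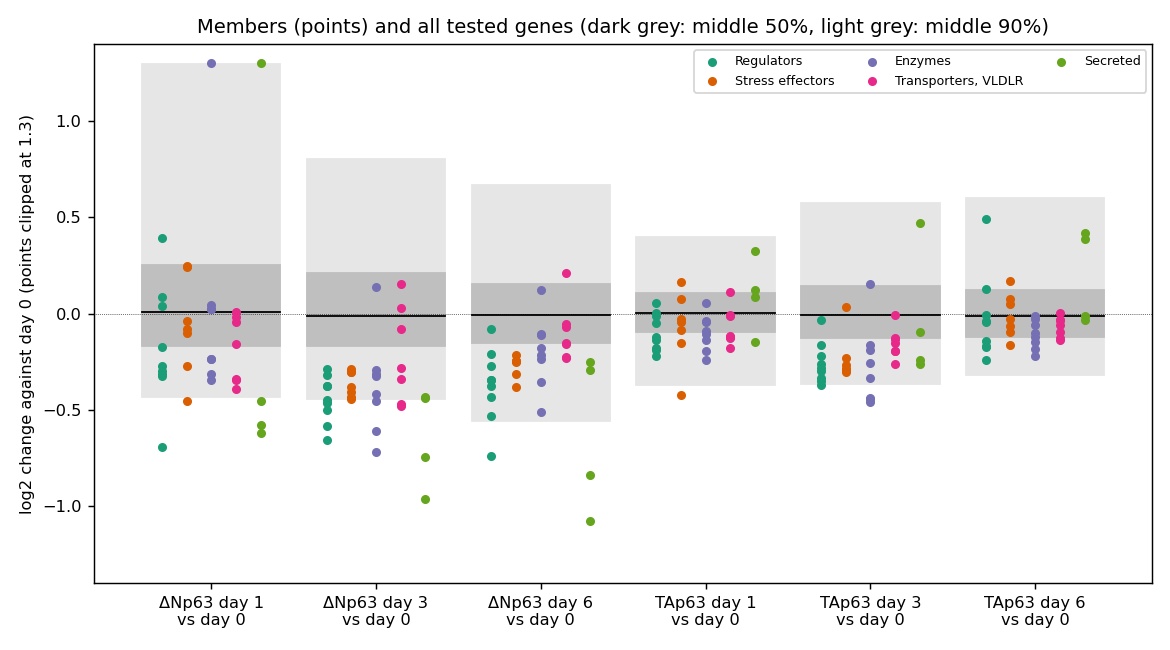
Fitted log2 change against day 0 (vertical axis) for each tested member, one point per gene coloured by role, in 6 comparisons (horizontal axis), with the spread of all 15642 tested genes as grey boxes and their median as a line. The points of ΔNp63 day 3 sit mostly below the middle 50% of genes, and GDF15 and ALDH1L2 at ΔNp63 day 1 are drawn at the clip of 1.3.

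The lowest adjusted p-values were those of 2 enzymes. MTHFD2 (hg38 chr2:74198563-74217565), the mitochondrial dehydrogenase and cyclohydrolase of one-carbon metabolism, had in the ΔNp63 line 751.1, 697.9 and 671.4 CPM at day 0, 634.2, 555.7 and 611.2 CPM at day 1, 430.4, 438.5 and 421.4 CPM at day 3, and 431.9, 550.9 and 506.8 CPM at day 6. Its day 3 and day 6 libraries each lay below those of day 0. The change was -0.72 ± 0.10 at day 3 (edgeR adjusted p = 0.000286) and -0.51 ± 0.10 at day 6 (edgeR adjusted p = 0.00786). At day 3 the call held when each library of the comparison was left out in turn; at day 6 it was lost without replicate 1 of day 6 or of day 0, at an adjusted p of up to 0.0742. With TAp63 induction MTHFD2 had 493.0, 490.3 and 482.0 CPM at day 3 against 696.2, 677.4 and 614.1 CPM at day 0. These groups did not overlap either; the change of -0.44 ± 0.10 missed the threshold with all libraries (edgeR adjusted p = 0.0758) and passed it in the blocked fit (adjusted p = 0.000806). Fragments from the 7.0% of its span that overlaps SLC4A5 on the other strand were not counted.

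PSAT1 (chr9:78297125-78330093), the aminotransferase of serine synthesis, had 278.0, 275.9 and 266.3 CPM at day 3 of ΔNp63 induction against 433.7, 414.3 and 403.6 CPM at day 0. The gap between the groups was wider than the spread within either, and the change was -0.61 ± 0.10 (edgeR adjusted p = 0.00184), a call kept in each leave-one-out fit. At day 6 the libraries had 282.3, 350.6 and 347.7 CPM, a change of -0.35 ± 0.10 that passed in the blocked fit (adjusted p = 0.00225) and not with all libraries (adjusted p = 0.101). PSAT1 in the TAp63 line had 316.7, 283.0 and 298.7 CPM at day 3 against 416.9, 414.1 and 388.7 CPM at day 0. Its change there was -0.44 ± 0.10, with an edgeR adjusted p of 0.0806 with all libraries and 0.000633 in the blocked fit.

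PHGDH, which commits a glycolytic intermediate to serine, had 549.8, 490.0 and 438.9 CPM at day 3 of ΔNp63 induction against 732.9, 674.7 and 567.6 CPM at day 0. SHMT2, which passes the carbon of serine to mitochondrial folate, had 220.5, 189.2 and 173.5 CPM against 270.7, 290.5 and 236.5 CPM. Both were lower without overlap, by -0.42 ± 0.15 and -0.45 ± 0.15, and were called in the blocked fit (adjusted p = 0.000805 for PHGDH and 0.000408 for SHMT2) and not with all libraries (0.22 and 0.131). PSPH, the last enzyme of serine synthesis, MTHFD1L, which makes mitochondrial formate, and CTH, which makes cysteine from cystathionine, were also called lower there in the blocked fit, at -0.28, -0.32 and -0.31. PSPH was lower in each replicate pair, at -0.18, -0.33 and -0.33, and without the block its change moved between -0.13 without replicate 1 of day 3 and -0.49 without replicate 1 of day 0. ALDH1L2, a mitochondrial folate dehydrogenase, was the enzyme with a positive change, 0.14 ± 0.72, at 2.69, 3.01 and 2.32 CPM on day 3 against 2.8, 2.21 and 2.3 CPM on day 0. Of the 8 enzymes tested, 7 were called lower at day 3 and 3 at day 6 of ΔNp63 induction in the blocked fit. In that fit 11.3% and 5.94% of all genes were called lower on these days. With all libraries 2 enzymes were called lower at day 3 and 1 at day 6, where 0.537% and 0.416% of all genes were called lower. ASNS and PCK2 could not be assessed: 99.4% of the span of ASNS is shared with the read-through gene CZ1P-ASNS and 100% of that of PCK2 with NRL, and a fragment in such a stretch went to neither gene. The 0 to 0.167 CPM counted for ASNS is therefore no measure of its level.

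**Figure D2:**
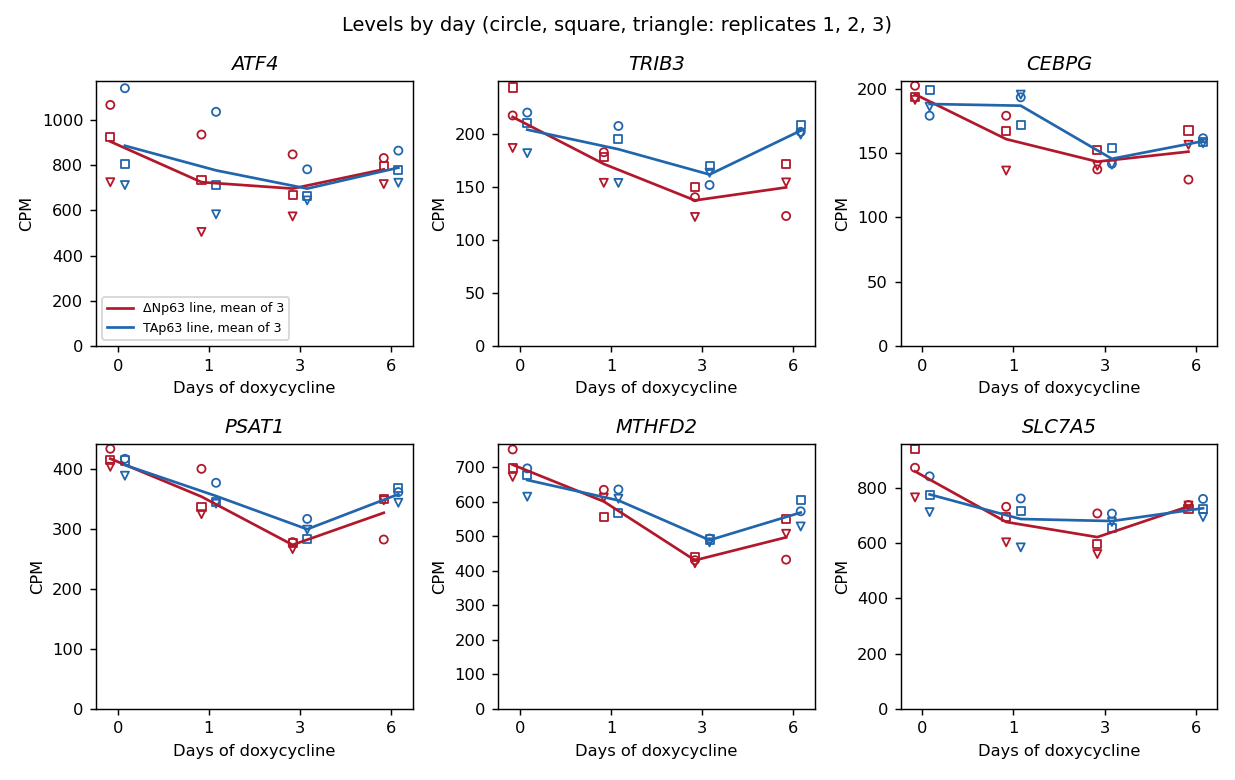
CPM (vertical axis, from 0) against days of doxycycline (horizontal axis) for 6 members in the ΔNp63 line (red) and the TAp63 line (blue), with each library as a point and the mean of 3 as a line. MTHFD2 and PSAT1 are lowest at day 3 in both lines, with means of 430.1 and 273.4 CPM in the ΔNp63 line at that day, and the 3 ATF4 points of a day follow the replicate number.

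Among the regulators, ATF4 itself (chr22:39520559-39522686) had 848.1, 668.5 and 573.6 CPM at day 3 of ΔNp63 induction, against 1066.9, 923.0 and 724.8 CPM at day 0. The groups overlapped, since replicate 1 was highest and replicate 3 lowest on both days, yet each replicate was lower than its own day 0. The change of -0.38 ± 0.23 was not called with all libraries (edgeR adjusted p = 0.59) and was called in the blocked fit at -0.38 ± 0.09 (adjusted p = 0.00275). TAp63 induction gave ATF4 values of 782.0, 663.4 and 644.3 CPM at day 3 against 1140.7, 806.0 and 712.3 CPM at day 0, a change of -0.32 ± 0.09 in the blocked fit (adjusted p = 0.0329). At day 6 the blocked fit gave -0.19 ± 0.09 in the ΔNp63 line and -0.14 ± 0.09 in the TAp63 line, neither past the threshold (adjusted p = 0.163 and 0.477).

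TRIB3, a pseudokinase induced by ATF4 that feeds back on it, had in the ΔNp63 line 217.0, 243.3 and 186.4 CPM at day 0, 182.4, 178.1 and 153.6 CPM at day 1, 140.1, 149.7 and 121.5 CPM at day 3, and 122.4, 171.5 and 154.0 CPM at day 6. Days 3 and 6 each lay below day 0 without overlap. The change was -0.65 ± 0.14 at day 3 (edgeR adjusted p = 0.0138), a call lost without replicate 1 or 2 of day 0 or replicate 3 of day 3 (adjusted p of up to 0.108), and -0.53 ± 0.14 at day 6 (0.0551 with all libraries and 0.000265 in the blocked fit). TRIB3 in the TAp63 line had 219.7, 209.6 and 181.5 CPM at day 0, 207.1, 195.1 and 153.5 CPM at day 1, 151.6, 169.6 and 163.1 CPM at day 3, and 201.6, 207.6 and 199.0 CPM at day 6. Here day 3 lay below day 0, at -0.33 ± 0.10 in the blocked fit (adjusted p = 0.0456), and the day 6 values fell within the range of day 0.

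CEBPG, a C/EBP protein that pairs with ATF4 and has the motif printed for it above, had 137.2, 152.5 and 140.0 CPM at day 3 of ΔNp63 induction against 202.2, 193.3 and 191.2 CPM at day 0. The groups did not overlap, and the change was -0.45 ± 0.11 (edgeR adjusted p = 0.0351). Leaving out any 1 of the 6 libraries compared ended that call, while the blocked fit gave an adjusted p of 0.000142. ATF5, a relative of ATF4 under similar translational control, had 41.0, 41.7 and 41.7 CPM against 51.9, 63.7 and 60.3 CPM, with no overlap. Its change was -0.50 ± 0.16, with an edgeR adjusted p of 0.124 with all libraries and 0.000136 in the blocked fit; 15.3% of its span is shared with genes on the other strand.

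DDIT3, which encodes the stress factor CHOP, had 33.9, 25.3 and 23.6 CPM at day 3 of ΔNp63 induction against 35.8, 37.5 and 29.9 CPM at day 0. These overlapped, and the change was -0.32 ± 0.26 with all libraries and -0.34 ± 0.10 in the blocked fit, which called it (adjusted p = 0.0147). ATF3, a stress-induced repressor, had 27.9, 25.6 and 25.7 CPM against 30.5, 36.8 and 29.5 CPM, a change of -0.29 ± 0.19 that was called in neither fit (adjusted p = 0.627 and, in the blocked fit, 0.0652). JDP2, an AP-1 family repressor, and CEBPB, a C/EBP activator, were called lower in the blocked fit at -0.38 and -0.44. CEBPB had 104.4, 38.0 and 50.3 CPM at day 3 against 152.0, 52.9 and 61 CPM at day 0, with replicate 1 far above the others on both days. It was lower in each of the 3 replicate pairs, by -0.54, -0.48 and -0.28. Without the block, leaving out the high replicate 1 of day 0 unbalances the groups and gives 0.17. Of its span, 70.5% of its span is shared with the antisense gene CEBPB-AS1. NUPR1, a small chromatin protein of the stress response, was at -0.59 ± 0.22 in the blocked fit, just outside the threshold (adjusted p = 0.0506).

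**Figure D3:**
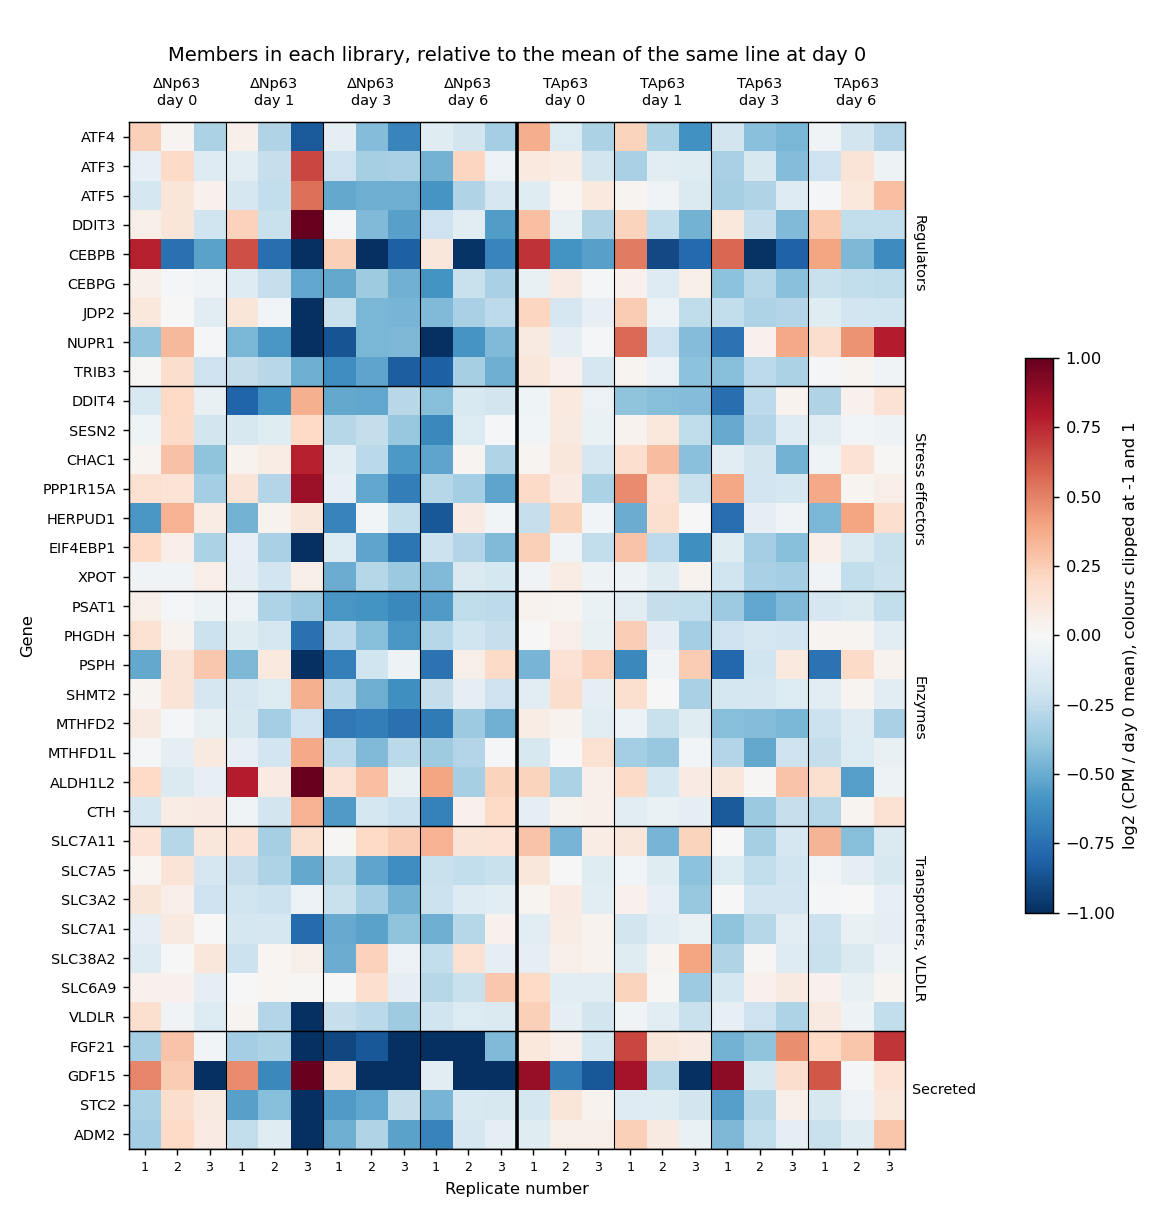
Log2 ratio of each library's CPM to the mean of the same line at day 0 (colour, blue lower and red higher, clipped at -1 and 1) for the 35 tested members (vertical axis, by role) in 24 libraries (horizontal axis, by line, day and replicate number). Blue predominates at ΔNp63 day 3, the column of ΔNp63 day 1 replicate 3 differs from its neighbours in both directions, and CEBPB, GDF15 and PSPH follow the replicate number.

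The 7 stress effectors had negative changes between -0.44 and -0.29 at day 3 of ΔNp63 induction, 0 were called with all libraries (1 at an unadjusted p under 0.05), and 6 were called lower in the blocked fit, where 11.3% of all genes were. XPOT, the nuclear exporter of tRNA, had 281.5, 325.3 and 305.5 CPM at day 3 against 386.6, 386.8 and 414.4 CPM at day 0. It did not overlap and changed by -0.38 ± 0.11 (edgeR adjusted p = 0.0736 with all libraries and 0.00105 in the blocked fit). EIF4EBP1, a brake on cap-dependent translation, had 291.8, 222.5 and 194.9 CPM against 369.4, 337.4 and 257.7 CPM; the groups overlapped, and the blocked fit gave -0.45 ± 0.09 (adjusted p = 0.000456). DDIT4 and SESN2, which restrain mTORC1, PPP1R15A, which directs dephosphorylation of eIF2α, and HERPUD1, a factor of protein degradation at the endoplasmic reticulum, were the others called there, at -0.43, -0.30, -0.42 and -0.27. HERPUD1 was lower in each replicate pair, at -0.09, -0.38 and -0.32, and without the block its change moved between -0.08 without replicate 2 of day 0 and -0.51 without replicate 1 of day 0. CHAC1, a glutathione-degrading enzyme, had -0.30 ± 0.13 and was not called (adjusted p = 0.0947).

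Of the 7 transporters or receptors, 4 were called lower at day 3 of ΔNp63 induction in the blocked fit, where 11.3% of all genes were. With all libraries 1 was called, where 0.537% of all genes were called lower. SLC7A5, the light chain of the large neutral amino acid transporter, had 707.3, 597.1 and 560.2 CPM against 872.7, 940.6 and 765.4 CPM at day 0. Its groups were apart, and the change of -0.47 ± 0.12 was called with all libraries (edgeR adjusted p = 0.0439); the call was lost without replicate 1 or 2 of day 0 or replicate 2 or 3 of day 3, at an adjusted p of up to 0.257. SLC7A1, the transporter of arginine and lysine whose promoter also held the motif, had 278.5, 272.2 and 299.2 CPM against 371.2, 420.2 and 393.0 CPM. It did not overlap and changed by -0.48 ± 0.15 (edgeR adjusted p = 0.106 with all libraries and 4.74e-05 in the blocked fit). SLC3A2, the heavy chain partner of SLC7A5, was at -0.34 ± 0.08 and VLDLR, a lipoprotein receptor, at -0.28 ± 0.08 in the blocked fit. SLC7A11, the cystine and glutamate exchanger, did not share that direction: it had 33.6, 38.3 and 39.4 CPM at day 3 against 36.7, 27.3 and 36.0 CPM at day 0, with overlap and a change of 0.18 ± 0.13 in the blocked fit (adjusted p = 0.329). Fragments in the 18% of its span shared with SLC7A11-AS1 were not counted. SLC38A2 and SLC6A9, which carry small neutral amino acids and glycine, were at -0.09 ± 0.10 and 0.03 ± 0.12.

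The 4 secreted factors were each called lower at day 3 of ΔNp63 induction in the blocked fit and 0 were called with all libraries (2 at an unadjusted p under 0.05). Of all genes, 11.3% were called lower in the blocked fit. STC2, a stanniocalcin, had 119.5, 123.4 and 150.1 CPM against 141.7, 199.7 and 188.3 CPM at day 0. The groups overlapped, and the blocked fit gave -0.43 ± 0.09 (adjusted p = 0.00114). ADM2, a peptide of the adrenomedullin family, was at -0.43 ± 0.12. FGF21, a stress hormone, had few counts, at 1.71, 1.78 and 1.44 CPM against 2.55, 3.92 and 3.15 CPM, without overlap and at -0.97 ± 0.24 (blocked fit, adjusted p = 0.00432). GDF15, a stress cytokine, had 3.06, 1.28 and 0.564 CPM against 3.87, 3.29 and 1.12 CPM, a change of -0.83 ± 0.29 in the blocked fit (adjusted p = 0.0373) that rests on values spread severalfold within each group.

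At day 6 of ΔNp63 induction most members were again below day 0. The median change was -0.25 against -0.0069 over all genes, 33 of 35 were negative, and 24 were lower in each replicate pair, which was not counted over all genes. With all libraries 1 member was called, MTHFD2, where 2.03% of all genes were called and 0.416% were called lower; in the blocked fit 16 were called, all lower, against 14.1% of genes in either direction and 5.94% lower. The 16 comprise 6 regulators, 3 stress effectors, 3 enzymes, 2 transporters and 2 secreted factors. In 10 members the groups of 3 did not overlap, against 7.68% of all genes lower in that way. The single call became 0 without replicate 1 of day 6 or of day 0, 2 without replicate 2 of day 6 or replicate 3 of day 0, and 5 without the library that stands apart (1.44% of genes called lower); with the libraries of both days alone it was 0. Over all genes, leaving out 1 library gave 175 to 784 calls in this comparison. The block alone gave 4 (1.34% lower) and DESeq2 4, all lower, where it called 2.86% of genes and 0.792% lower.

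The direct comparison of day 6 with day 3 was added after the data were seen. In the ΔNp63 line 30 of 35 members were higher at day 6, with a median of 0.13 against 0.0151 over all genes, and in the TAp63 line 32 were higher, with a median of 0.18 against -0.0079. In the TAp63 line 10 members were higher at day 6 without overlap, against 2.82% of all genes, and in the ΔNp63 line 5 were, against 5.11%. With edgeR 0 members were called in either line, where 0.0128% of genes were called in the ΔNp63 line and 0.0% in the TAp63 line with all libraries, and 1.51% and 0.0317% in the blocked fit. DESeq2 also called 0, with 0.072% and 0.0% of genes. With all libraries 5 members in the TAp63 line and 1 in the ΔNp63 line had an unadjusted p under 0.05. In the blocked fit 14 and 8 had. The share of all genes at that p is not given, so these counts do not compare the lines.

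The TAp63 line also had mostly negative changes at day 3. The median over the 35 members was -0.26 against -0.0065 over all genes, 32 were negative and 26 were lower in each replicate pair, which was not counted over all genes. In 13 the groups of 3 did not overlap, against 6.18% of all genes lower in that way. edgeR called 0 with all libraries (7 at an unadjusted p under 0.05), where 0.435% of genes were called, and DESeq2 called 3 lower, PSAT1, MTHFD2 and CEBPG, with 0.637% of genes called and 0.0782% lower. The block alone and leaving out the library that stands apart alone each gave 2, PSAT1 and MTHFD2 (0.109% and 0.133% of genes called lower), and the blocked fit gave 9, all lower, against 4.57% of genes in either direction and 1.37% lower. These were CTH, MTHFD1L, XPOT, ATF4, PSAT1, CEBPG, MTHFD2, TRIB3 and SLC7A1. CEBPG had 141.6, 153.9 and 140.9 CPM at day 3 against 178.9, 199.2 and 185.9 CPM at day 0, with no overlap, at -0.37 ± 0.08 in the blocked fit (adjusted p = 0.0046). At day 6 of TAp63 induction the median was -0.04, with 0 calls in edgeR with all libraries, in the blocked fit and in DESeq2 (2 at an unadjusted p under 0.05 with all libraries), where 0.441% of genes were called with all libraries, 3.6% in the blocked fit and 0.578% by DESeq2.

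At day 1 edgeR with all libraries called 0 members in either line, where it called 0.0959% of genes in the ΔNp63 line and 0.121% in the TAp63 line. At an unadjusted p under 0.05 there were 10 in the ΔNp63 line and 0 in the TAp63 line in that fit. Without the library that stands apart there were 4 and 2, and in the blocked fit 12 and 6. These counts are given without the share of all genes at that p, so they do not compare the lines. The blocked fit called 1, DDIT4 at ΔNp63 day 1, where 0.849% of genes were called, and 0 at TAp63 day 1, where 0.887% were. DDIT4 had 242.6, 278.0 and, in the library that stands apart, 539.4 CPM at day 1 of ΔNp63 induction, against 380.7, 485.6 and 400.7 CPM at day 0. The change was -0.66 ± 0.12 in the blocked fit (adjusted p = 0.00389) and -0.27 ± 0.23 with all libraries (edgeR adjusted p = 0.679). These fits differ in the block as well as in that library, and libraries with the same number did not deviate together in this comparison. Leaving out that library without the block, edgeR called 0 members at ΔNp63 day 1. In the TAp63 line DDIT4 had 279.9, 276.0 and 273.7 CPM at day 1 against 359.7, 396.9 and 354.7 CPM at day 0. These groups did not overlap, and the change of -0.42 ± 0.11 in the blocked fit lay just outside the threshold (adjusted p = 0.0584). DESeq2 called 3 members at ΔNp63 day 1, GDF15, ALDH1L2 and STC2, where it called 3.34% of genes, and 0 members at TAp63 day 1, where it called 0.151%. In GDF15 and ALDH1L2 the library that stands apart held 76.5 and 67.8 CPM, while replicates 1 and 2 held 3.83 and 1.77 CPM of GDF15 and 4.2 and 2.58 CPM of ALDH1L2. In STC2 it held 87.1 CPM, and replicates 1 and 2 held 121.2 and 131.6 CPM.

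**Figure D4:**
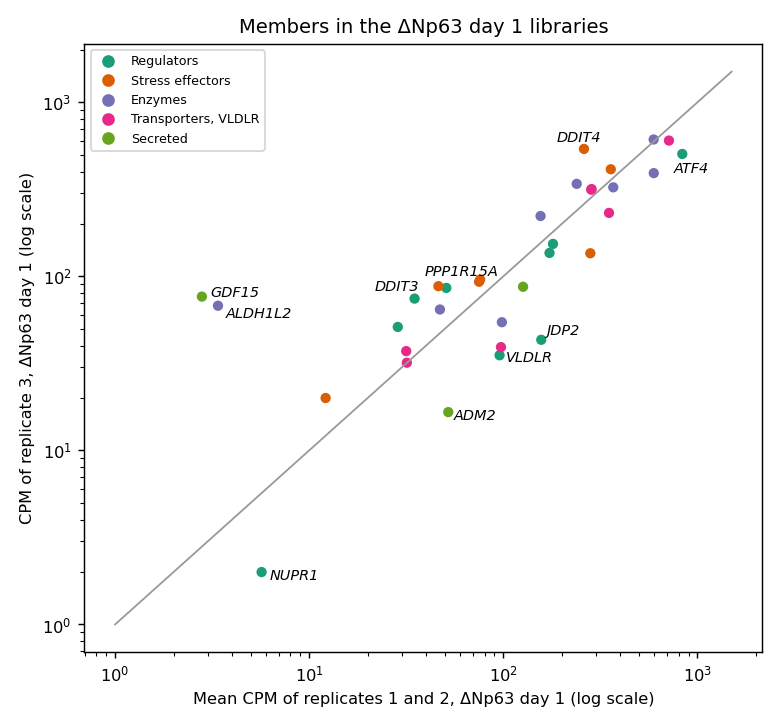
CPM of tested members in replicate 3 of ΔNp63 day 1 (vertical axis, log scale) against their mean in replicates 1 and 2 (horizontal axis, log scale), one point per gene coloured by role, with the line of equal levels. GDF15 at 76.5 CPM and ALDH1L2 at 67.8 CPM stand far above the line and NUPR1, ADM2 and JDP2 below it; FGF21, with 0 counts in that library, is not drawn.

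Whether the responses of both lines differed was tested directly, as the ΔNp63 change minus the TAp63 change. At day 3 the median over the members was -0.15 against -0.0154 over all genes, and edgeR called 0 with all libraries (0 at an unadjusted p under 0.05), 0 in the blocked fit and DESeq2 0, where 0.0448% of genes were called with all libraries, 0.944% in the blocked fit and 0.0964% by DESeq2. At day 6 the median was -0.17 against 0.008, 31 of 35 were negative, and edgeR with all libraries called 0 (4 at an unadjusted p under 0.05), where 0.0831% of genes were called, and DESeq2 called 0, with 0.135% of genes. The blocked fit called 5 at day 6, all with the lower response in the ΔNp63 line, against 1.87% of genes in either direction and 0.824% lower. TRIB3 differed by -0.53 ± 0.14 (adjusted p = 0.0366), ATF5 by -0.48 ± 0.13 (0.0432) and PPP1R15A by -0.55 ± 0.14 (0.0434). NUPR1 differed by -1.28 ± 0.33 (adjusted p = 0.0384) and FGF21 by -1.59 ± 0.38 (0.0221), both at few counts.

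The values behind the difference are given as a description, since the genes were chosen by it. PPP1R15A had 39.7, 38.3 and 33.7 CPM at ΔNp63 day 6 against 53.9, 53.3 and 38.4 CPM at day 0, and 53.8, 42.1 and 43.2 CPM at TAp63 day 6 against 47.1, 43.8 and 33.1 CPM at day 0. ATF5 had 39.0, 47.7 and 52.1 CPM at ΔNp63 day 6 against 51.9, 63.7 and 60.3 CPM at day 0, and 50.6, 55.0 and 62.9 CPM at TAp63 day 6 against 47.0, 52.0 and 54.7 CPM at day 0. Each of the 5 was lower at day 6 in the 3 ΔNp63 pairs, and ATF5, NUPR1 and FGF21 were higher in the 3 TAp63 pairs, while PPP1R15A was higher in 2 and TRIB3 in 1. FGF21 was the member that differed most between the lines before induction, at 2.55, 3.92 and 3.15 CPM in the ΔNp63 line against 2.0, 1.93 and 1.65 CPM in the TAp63 line, 0.84 ± 0.24 in the blocked fit (adjusted p = 0.365). At day 0 edgeR called 0 members between the lines in either fit (0 at an unadjusted p under 0.05 with all libraries) and DESeq2 0, where 0.0128% of genes were called with all libraries, 0.171% in the blocked fit and 0.0315% by DESeq2.

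**Figure D5:**
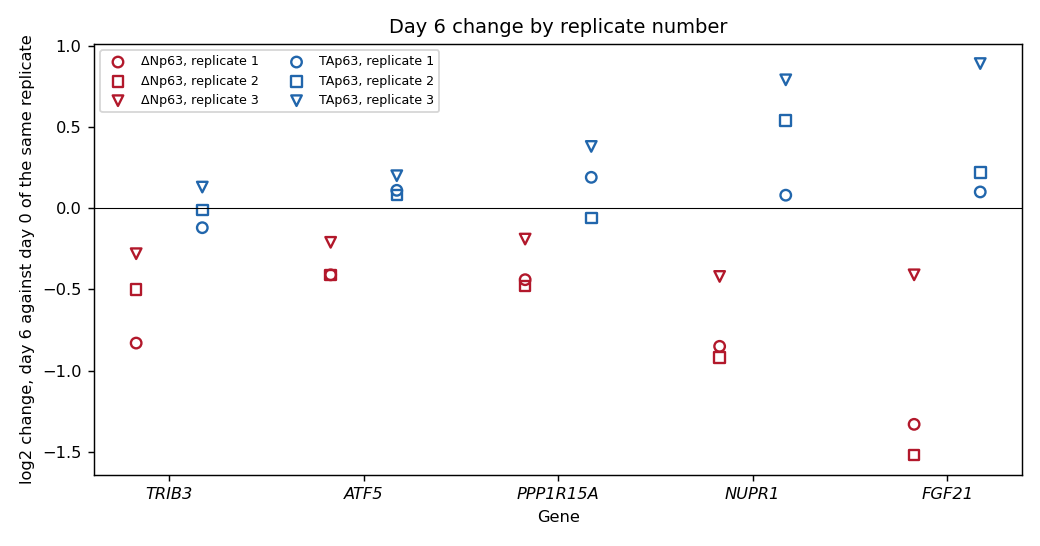
Log2 change of day 6 against day 0 of the same replicate number (vertical axis) for 5 members (horizontal axis), with the 3 ΔNp63 pairs in red on the left and the 3 TAp63 pairs in blue on the right of each gene. The ΔNp63 points lie below 0, from -1.52 to -0.19, and each lies below the TAp63 points of the same gene.

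Related genes outside the 37 were described from 6 fixed lists. Of 20 cytosolic aminoacyl-tRNA synthetases, which charge tRNA with amino acids and include known ATF4 targets, 1 was called at day 3 of ΔNp63 induction with all libraries, YARS1 at -0.60 ± 0.12 (edgeR adjusted p = 0.00723). With all libraries 0.537% of all genes were called lower at that day. YARS1, the tyrosine enzyme, had 372.8, 359.9 and 371.8 CPM at day 3 against 517.4, 613.3 and 546.6 CPM at day 0. In the blocked fit 13 of the 20 were called lower and 0 higher at day 3 of ΔNp63 induction, 7 lower at day 6, and 5 lower at day 3 of TAp63 induction, with medians of -0.28, -0.09 and -0.22. In that fit 11.3%, 5.94% and 1.37% of all genes were called lower in these 3 comparisons. Of 21 other tested genes of amino acid and one-carbon metabolism, 0 were called at ΔNp63 day 3 with all libraries. The blocked fit called 9 lower and 0 higher, with a list median of -0.23, against 11.3% of all genes called lower. Among the 9 were the aspartate aminotransferase GOT1 at -0.51 ± 0.07 and the proline enzyme PYCR1 at -0.31 ± 0.09.

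Other amino acid transporters did not share one direction. Of 17 tested, 2 were called higher with all libraries at day 3 of ΔNp63 induction, where 2.2% of all genes were called. The blocked fit called 4 higher and 6 lower, with a median of -0.07, where 23.5% of all genes were called and 11.3% called lower. SLC7A8, a neutral amino acid exchanger that pairs with SLC3A2, had 82, 70.4 and 69 CPM at day 3 against 41.6, 44.2 and 40.8 CPM at day 0, and SLC38A10, a glutamine and alanine transporter, had 244.6, 224.7 and 200.1 CPM against 153.5, 148.0 and 143.5 CPM. Both rose, by 0.81 (edgeR adjusted p = 0.00266) and 0.59 (0.0233). SLC1A7, a glutamate transporter, fell at day 6, to 2.18, 1.87 and 2.21 CPM against 8.15, 7.04 and 8.07 CPM at day 0, at -1.90 (edgeR adjusted p = 0.000556). The TAp63 line had 7.14, 6.44 and 8.43 CPM at day 6 against 6.93, 4.79 and 6.32 CPM at day 0, and the day 6 responses of the lines differed by -2.19 (edgeR adjusted p = 0.0294).

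Genes upstream of ATF4 and in neighbouring stress pathways were counted in the same way. Of 15 tested eIF2α kinases and partners, 0 were called with all libraries at day 3 of ΔNp63 induction (1 at an unadjusted p under 0.05) and 6 were called lower in the blocked fit, against 11.3% of all genes, with a median of -0.14; PPP1R15B, the constitutive partner of PPP1R15A, was lowest among the called at -0.51 ± 0.08. EIF2AK3, which encodes PERK, had 16.6, 14.2 and 14.9 CPM at day 6 of ΔNp63 induction against 12.3, 10.2 and 11.7 CPM at day 0, without overlap, and was called higher in the blocked fit at 0.43 ± 0.11 (adjusted p = 0.00749). That fit also called PPP1R15B lower at -0.40 and EIF2S3 lower at -0.22 on day 6, where it called 14.1% of all genes in either direction. With all libraries 0 of the 15 were called on that day. Of 21 targets of ATF6 and XBP1, the endoplasmic reticulum branches that act beside PERK, 2 were called higher and 2 lower at ΔNp63 day 3 in the blocked fit, with a median of -0.06, against 23.5% of all genes called. Of 12 targets of the oxidative stress factor NRF2, the blocked fit called 1 higher at ΔNp63 day 3 and 3 at day 6. Its medians were -0.02 and 0.18, and it called 23.5% and 14.1% of all genes in either direction. With all libraries 0 of the NRF2 targets were called on these days.

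Markers of cell state moved in the same libraries. The summed level of 6 squamous markers was 150.4 to 188.8 CPM at ΔNp63 day 3 against 38.3 to 49.4 CPM at day 0, and 69.6 to 74.6 CPM at TAp63 day 3 against 39.3 to 51.3 CPM at day 0, with KRT14 near 0. The sum of 6 tuft cell markers was 383.4 to 448.3 CPM at ΔNp63 day 3 against 623.2 to 636.1 CPM at day 0, where CHAT was at or near 0. The sum of 6 immune markers, most of it LYZ, was 641.5 to 862.1 CPM against 921.7 to 1104.4 CPM, and that of 6 fibroblast markers, most of it COL1A1, was 22.9 to 34 CPM against 14.3 to 20.1 CPM. The T cell marker CD3E and the fibroblast markers DCN and LUM were near 0 on both days. The part of these markers in the change of the 35 members was not tested.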

How the data were processed

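Raw gene counts were deposited for 24 libraries. Alignment used HISAT2 2.1.0 and counting featureCounts, whose version is 1.6.1 in the submitters' processing notes and 2.0.0 in the file header. Per the file headers, the counts cover hg38 transcript spans, introns included, without strand, and checks on neighbouring genes found that fragments in overlapping genes went uncounted, which affects most ASNS, PCK2, CEBPB, SLC7A11, ATF5 and MTHFD2. No count column was left unmapped.

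From these counts, edgeR 4.0.16 in R 4.3.3 (filterByExpr, TMM, quasi-likelihood test, 8 groups, 16 residual degrees of freedom) tested 15642 genes, with Benjamini-Hochberg adjustment over all of them. The blocked fit tested 15783 genes with 13 residual degrees of freedom. CPM uses TMM-scaled library sizes, and changes are log2 with SE from the F statistic. DESeq2 1.42.0, other size factors and filters, and leaving out each library were alternatives. Deviations from the group means were correlated between libraries. At the same replicate number this gave 0.229 to 0.689 in each comparison except ΔNp63 day 1 against day 0, which gave -0.286 to 0.235. At different numbers it gave -0.645 to 0.237 in the other comparisons. Replicate 2 of ΔNp63 day 3 had 0.2285 with replicate 2 of day 0 and 0.2254 with replicate 3, so its pairing is weakly marked. The numbers were taken to pair the libraries. Pairs of libraries within a group differed beyond sampling noise, with a chi-square per degree of freedom of at least 5.353.

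The members and lists were chosen with earlier results of these data known. Named in full were the 12 members with the smallest adjusted p among the 29 called in either fit against day 0, the most counted member of each class, which added ATF4, and ATF3 and DDIT3; other members were named after their values were seen. Promoter sequences come from RefSeq (GRCh38.p14). The check of the tumour type covers part of its marker list, and the rest is not reported here.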

Additional observations from a re-analysis of the deposited data

Results flagged for a closer look

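The day 6 responses of 5 members differed between the lines by the direct test of that difference, in the fit with the replicate number as a block and without replicate 3 of ΔNp63 day 1. The ΔNp63 minus TAp63 difference was -0.53 for TRIB3, -0.48 for ATF5, -0.55 for PPP1R15A, -1.28 for NUPR1 and -1.59 for FGF21 on the log2 scale. With all libraries and by DESeq2, 0 of the 5 were called. FGF21 and NUPR1 lay at or under 10.7 CPM in both lines on days 0 and 6. What sets these genes apart was not tested.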

How the results depend on the processing

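The 59 log2 changes followed were those of members called with all libraries or in the blocked fit. Alternative values, the blocked fit among them, were set against the fit with all libraries. Of these values, 734 kept their direction and side of the threshold, 97 newly passed it, 22 no longer passed it and 2 reversed. With all libraries, only 5 of the changes were called at ΔNp63 day 3 and 1 at ΔNp63 day 6. For each other change, a kept side means that it was again not called. Members called at ΔNp63 day 3 numbered 5 with all libraries, 3 with no filter beyond 10 counts, 8 with DESeq2, and 11 without any library of replicate 1 and without the library that stands apart (added after the data were seen). At ΔNp63 day 6 they numbered 1, with 2 under DESeq2's size factors, 0 with the compared libraries alone, 0 without replicate 1 and the library that stands apart, and 4 with DESeq2. At TAp63 day 3 they numbered 0, with 1 without replicate 1 and that library and 3 with DESeq2, and at ΔNp63 day 1 they numbered 0, with 3 by DESeq2. Of all genes, edgeR with all libraries called 2.2% at ΔNp63 day 3 and 2.03% at ΔNp63 day 6. It called 0.435% at TAp63 day 3 and 0.0959% at ΔNp63 day 1. DESeq2 called 3.29%, 2.86%, 0.637% and 3.34% in the same order. The shares under the other settings of this paragraph are not given.

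With the replicate block alone there were 2 calls at TAp63 day 3, 12 at ΔNp63 day 3 and 4 at ΔNp63 day 6. Of all genes, 0.109%, 2.69% and 1.34% were called lower there. With the block and without the library that stands apart there were 9, 28 and 16, with 1 at ΔNp63 day 1 and 5 for the day 6 difference between lines. Of all genes, 1.37%, 11.3% and 5.94% were called lower in the first 3 of these comparisons. At ΔNp63 day 1 0.849% were called, and for the day 6 difference 0.824% were called lower. In the other comparisons the replicate block changed no count of members called.

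Leaving out 1 library gave 0 to 2 calls at TAp63 day 3, 0 to 3 at ΔNp63 day 1, 2 to 11 at ΔNp63 day 3 and 0 to 5 at ΔNp63 day 6. Over all genes, these fits gave 32 to 151, 3 to 1101, 144 to 1000 and 175 to 784 calls, so the counts of all genes moved as well. CEBPB ranged from -1.0 to 0.17 at ΔNp63 day 3 and from -0.82 to 0.20 at day 6, positive without replicate 1 of day 0. Replicate 1 is high on all of these days, so leaving out 1 of its libraries unbalances an unpaired fit, and each of the 3 pairs was lower on both days. Without the block, leaving out 1 library at ΔNp63 day 3 also moved the changes of other members. Examples were ATF4 (-0.54 to -0.24), CTH (-0.39 to -0.20), DDIT3 (-0.50 to -0.22), GDF15 (-1.55 to -0.35), SESN2 (-0.39 to -0.19), PSPH (-0.49 to -0.13) and HERPUD1 (-0.51 to -0.08). So did PPP1R15A (-0.60 to -0.28), EIF4EBP1 (-0.62 to -0.32), VLDLR (-0.35 to -0.20), ADM2 (-0.58 to -0.33), STC2 (-0.57 to -0.33), DDIT4 (-0.52 to -0.32), SLC3A2 (-0.44 to -0.28) and PHGDH (-0.52 to -0.34). Depth limits GDF15, FGF21, ALDH1L2 and NUPR1, which have few counts, and 3 libraries a group limit all tests.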
